A study of Mus musculus with 4 samples.

Results

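Cells contain the toxicity of peroxides and electrophiles with thiols that are oxidised and then reduced again. Glutathione, a tripeptide made by glutamate-cysteine ligase (Gclc and Gclm) and glutathione synthetase (Gss), is used by glutathione peroxidases and glutathione transferases and is recycled by glutathione reductase (Gsr) with NADPH. Peroxiredoxins reduce peroxides through a reactive cysteine that most of them restore with thioredoxin, which thioredoxin reductase in turn reduces with NADPH. The transcription factor NRF2 (Nfe2l2), held in check by KEAP1, drives many of these genes through the antioxidant response element. In macrophages the same systems face the oxidants that the phagocyte NADPH oxidase makes.

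The genes described here were taken from 1 RPKM table by symbol. They are the rows that begin with Gsta, Gstk, Gstm, Gsto, Gstp, Gsts, Gstt, Gstz, Gpx or Prdx with a number, or Txn, together with Gclc, Gclm, Gss, Gsr, Nqo1, Srxn1, Cat, Sod1, Sod2, Sod3, Me1, Nfe2l2 and Keap1. Of 69 matching rows, 1 pseudogene row was dropped and 3 rows were listed at 0 in every library, which left 65 of the 24784 genes in the table. RPKM is a read count divided by gene length and by the reads of the library, so levels of different genes can be set side by side.

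Polyadenylated RNA came from tumour-associated macrophages, sorted by flow cytometry out of tumour-bearing livers. The mice were males of 6 to 8 weeks. Their tumours were of Hepa 1-6, a hepatoma line of the mouse, by a route abbreviated i.pv. All 4 libraries share this treatment. There were 2 with the genotype label Control and 2 labelled OXCT1mKO, here control 1 and 2 and OXCT1mKO 1 and 2. How the Oxct1 allele was made, which cells it is deleted in, the genotype of the controls beyond that label, and whether a library is 1 mouse or a pool are not stated by the labels.

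Oxct1, the ketone body enzyme named in the genotype, was 19.3 and 20.3 RPKM in control libraries against 14.7 and 15.4 RPKM in OXCT1mKO (-0.37 ± 0.09, log2 fold change ± SE, limma adjusted p 0.0346). Macrophage markers were present in every library (10 of 10 above 0, summed level 882 to 1538 RPKM in control and 1741 to 1926 RPKM in OXCT1mKO), and 6 of the 10 passed the test as higher. Kupffer cell markers summed to 35.7 and 39.3 RPKM in control against 466 and 279 RPKM in OXCT1mKO, with 7 of 8 higher. Hepatoma and fetal liver markers summed to 138 to 167 RPKM against 53.5 to 62.5 RPKM (3 of 4 tested lower), and T cell markers to 133 to 197 RPKM against 44.0 to 70.2 RPKM (5 of 6 lower). Pancreatic acinar markers summed to 38.8 and 28.9 RPKM in control against 2.46 and 1.10 RPKM in OXCT1mKO, with 6 of 6 lower. Liver endothelium markers summed to 831 and 979 RPKM in control against 1515 and 1372 RPKM in OXCT1mKO, with 5 of 8 higher. Markers of hepatocytes (482 to 777 RPKM, 1 of 12 higher and 1 lower) and epithelium (511 to 968 RPKM, 1 of 6 higher) were found in all 4 libraries as well. Erythroid markers summed to 24385 RPKM in control 1 and to between 309 and 846 RPKM in the other libraries. Neutrophil markers also differed between the controls, at 155 and 1255 RPKM, against 568 and 385 RPKM in OXCT1mKO (1 of 5 tested lower). Stellate and fibroblast markers summed to 213 and 178 RPKM in control and 197 and 145 RPKM in OXCT1mKO (1 of 5 tested lower). No marker of the 11 lists was at 0 in all 4 libraries. In such bulk RNA, fewer cells of a type and less of a transcript per cell cannot be told apart.

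**Figure D1:**
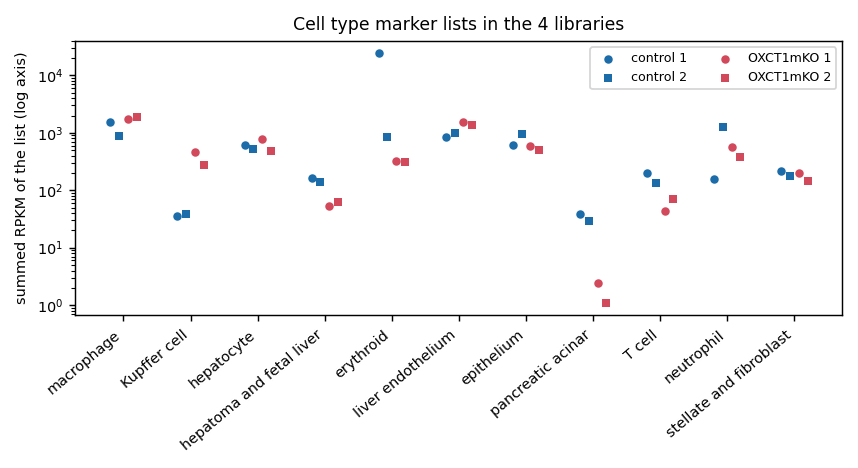
Summed RPKM (log axis) of 11 lists of cell type markers in each of the 4 libraries, with controls in blue and OXCT1mKO in red. Kupffer cell and liver endothelium markers lie higher and hepatoma, pancreatic acinar and T cell markers lower in both OXCT1mKO libraries. Erythroid markers stand apart in control 1, and neutrophil markers lie far apart between the controls.

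The comparison asked how the genes of thiol and peroxide metabolism differed between the groups. Of the 65 genes, 58 had a mean of at least 1 RPKM and were tested with limma on log2(RPKM + 1) together with all 12523 genes of that level. Past a Benjamini-Hochberg adjusted p of 0.05, 23 of the 58 fell in OXCT1mKO and 3 rose. The background over all tested genes was 16.4% lower, 16.4% higher and 32.8% called in either direction, against 39.7%, 5.17% and 44.8% of the members. The genes that fell held the peroxiredoxins Prdx1, Prdx2, Prdx3, Prdx4 and Prdx6, thioredoxin (Txn1), Sod1, Gpx4 and 8 glutathione transferases. The genes that rose were Nfe2l2, Txnip and Txndc16.

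Both libraries of one group lay beyond both of the other for 46 of the 58 genes, 33 lower in OXCT1mKO and 13 higher. That share has to be read against a background of 74.7% of all tested genes, 37% lower and 37.6% higher. The median log2 fold change of the 58 genes was -0.29, from -1.18 to 1.07, beside a median of 0.0045 over all tested genes. The members summed to 3407 and 3265 RPKM in the controls and to 2847 and 2562 RPKM in OXCT1mKO. As a share of all RPKM in a library this was 0.902% and 0.917% against 0.868% and 0.788%. Globin is part of that total, at 8.81% in control 1 and 0.327% in control 2. In OXCT1mKO it was 0.137% and 0.132%, so globin lowers the share of control 1 most.

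The calls rest on both OXCT1mKO libraries. Without OXCT1mKO 1 or without OXCT1mKO 2, limma called hardly any gene of the whole table, and no member. The members' median log2 fold change was -0.37 without OXCT1mKO 1 and -0.19 without OXCT1mKO 2. All 26 called genes kept their direction in both of those fits, which was fixed beforehand, as their groups did not overlap. When the libraries were scaled to equal RPKM sums without globin, the split went from 3 higher and 23 lower to 8 higher and 18 lower. The same scaling moved the split over all genes from 2058 and 2052 to 2718 and 1479, and their median to 0.089.

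**Figure D2:**
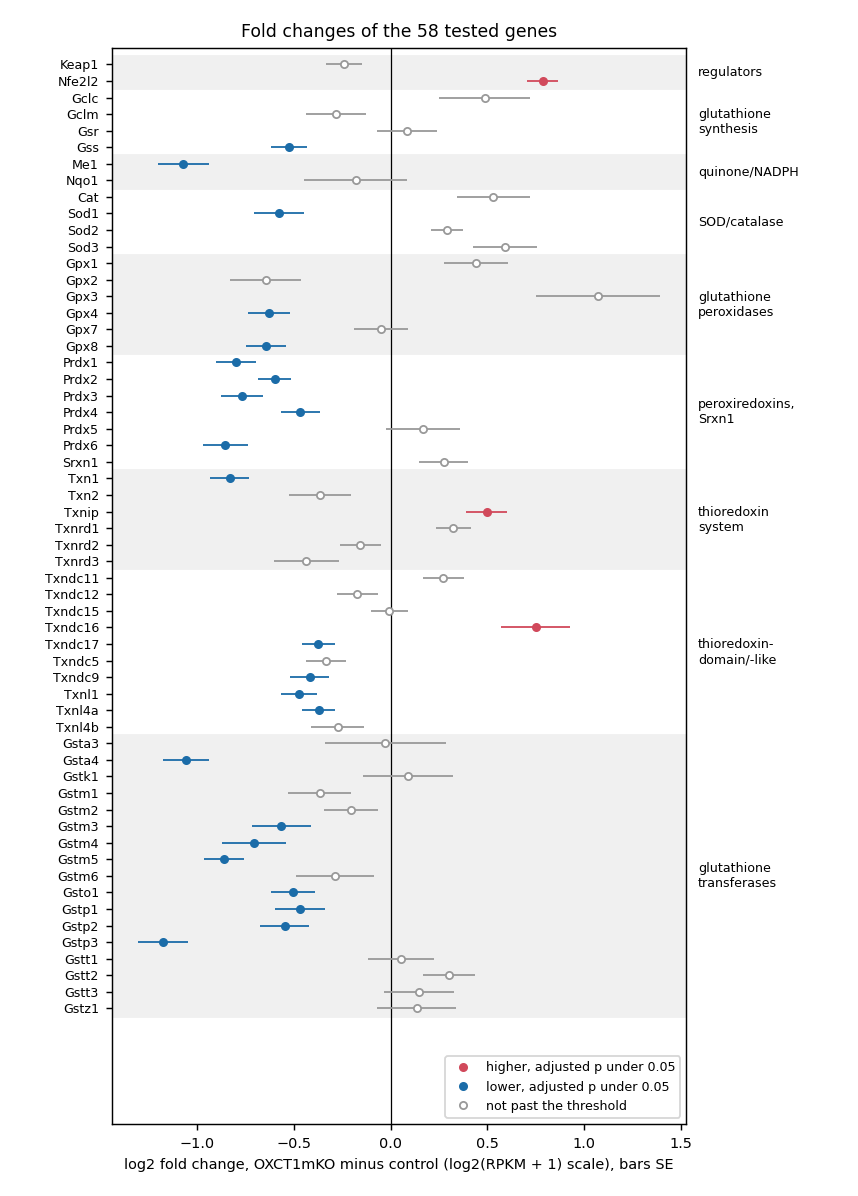
Log2 fold change (OXCT1mKO minus control, log2(RPKM + 1) scale) with its standard error for the 58 tested genes, grouped by role, with filled points past an adjusted p of 0.05. Of these, 23 lie to the left of 0 and 3 to the right, and the peroxiredoxins apart from Prdx5 lie together between -0.86 and -0.47.

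Level and summed exon length varied with the fold change over the whole table. Of 511 tested genes with a mean of at least 100 RPKM, 40.7% were called lower and 12.5% higher, and 4 of the 8 members at that level were called lower and 1 higher. Between 10 and 100 RPKM, 23.6% of 4990 genes were called lower, against 12 of 28 members. Between 1 and 10 RPKM, 9.5% of 7022 genes were called lower, against 7 of 22 members. Tested genes were also divided into 4 equal bins of summed exon length. This counts the bases in any annotated exon of a gene and is not the length of 1 transcript. In the shortest bin, up to 2541 bases, 29.2% were called lower and 10.2% higher, with a median log2 fold change of -0.23. That bin held 26 of the tested members, of which 14 were called lower and 0 higher (median -0.42). In the next bin, up to 4201 bases, 15 members had a median of 0.15 (2 higher, 4 lower). Over all its genes the median was -0.094, with 12.3% called higher and 19.8% lower. In the bin after it, up to 6530 bases, 12 members had a median of -0.31 (0 higher, 4 lower). Over all genes of that bin the median was 0.036, with 15.9% called higher and 11.8% lower. In the longest bin, 4.83% of genes were called lower and 27.1% higher, and of 5 members 1 was called each way. The part of length and level in the members' differences was not tested further.

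**Figure D3:**
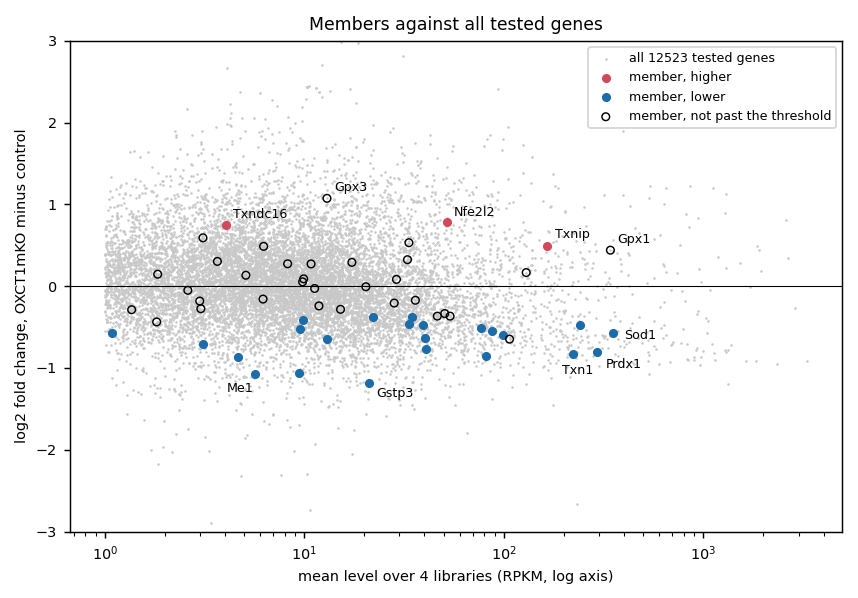
Log2 fold change against mean RPKM (log axis) for 12523 tested genes in grey and the 58 members in colour; 12 genes beyond 3 in either direction are not drawn. The members lie mostly below 0 at every level, and grey points above 100 RPKM also lie mostly below 0 (median -0.31).

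Nfe2l2, which encodes NRF2, was 37.3 and 38.1 RPKM in control and 65.4 and 66.0 RPKM in OXCT1mKO. The groups did not overlap, as for 74.7% of all tested genes, and the replicates of each lay within 1 RPKM of each other. It rose by 0.79 ± 0.08 (limma adjusted p 0.0127). Keap1, the adaptor that directs NRF2 to degradation, was 13.02 and 12.8 RPKM in control and 11.2 and 10.3 RPKM in OXCT1mKO, which did not pass (-0.24 ± 0.09, limma adjusted p 0.106). Within each library, the ratio of Nfe2l2 to Keap1 RPKM was 2.87 and 2.97 in control and 5.82 and 6.39 in OXCT1mKO. Such a ratio does not depend on how libraries are scaled.

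NRF2 binds with small MAF proteins to TGACNNNGC, the core of the antioxidant response element. Promoter windows from 250 bases before to 50 bases after a start (RefSeq, GRCm38.p6, the assembly also called mm10) were found for 56 of the 65 genes. These genes had 74 windows, as a gene can have more than 1 start. The core, on either strand, was in a window of 13 of those 56 genes (23.2%), against 14.0% of all 27025 genes with a window. Counted by window, it was in 17.6% against 12.4%. It was found for 4 of the 19 genes called lower, 1 of the 3 called higher and 6 of the 28 not called. A match is a run of letters, not evidence of binding. A set of 4 windows that hold the core is printed here, because the genes went different ways: Nfe2l2 rose, Prdx1 and Me1 fell, and Txnrd1 did not pass. They are Nfe2l2 at chr2:75704614-75704913 (minus strand), Prdx1 at chr4:116685349-116685648 (plus strand), Me1 at chr9:86695865-86696164 (minus strand) and Txnrd1 at chr10:82858956-82859255 (plus strand). Each is written from 5′ to 3′ on the strand of its gene, and capitals mark the core or its reverse complement.
Nfe2l2: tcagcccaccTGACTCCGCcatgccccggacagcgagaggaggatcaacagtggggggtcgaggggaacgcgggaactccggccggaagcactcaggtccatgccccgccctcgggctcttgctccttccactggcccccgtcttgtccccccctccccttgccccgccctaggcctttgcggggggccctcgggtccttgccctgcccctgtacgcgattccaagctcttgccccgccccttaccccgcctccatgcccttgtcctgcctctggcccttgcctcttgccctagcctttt
Prdx1: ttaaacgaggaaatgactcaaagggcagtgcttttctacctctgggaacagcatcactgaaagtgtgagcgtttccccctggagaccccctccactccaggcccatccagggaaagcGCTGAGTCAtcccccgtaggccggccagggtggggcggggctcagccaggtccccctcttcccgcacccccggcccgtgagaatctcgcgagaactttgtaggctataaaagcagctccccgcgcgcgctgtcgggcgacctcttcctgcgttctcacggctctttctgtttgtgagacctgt
Me1: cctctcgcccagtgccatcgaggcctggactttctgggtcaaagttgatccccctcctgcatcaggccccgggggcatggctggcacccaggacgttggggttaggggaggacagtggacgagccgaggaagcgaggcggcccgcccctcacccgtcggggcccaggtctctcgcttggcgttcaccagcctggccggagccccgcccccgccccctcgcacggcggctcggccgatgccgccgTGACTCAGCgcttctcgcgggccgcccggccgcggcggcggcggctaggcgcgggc
Txnrd1: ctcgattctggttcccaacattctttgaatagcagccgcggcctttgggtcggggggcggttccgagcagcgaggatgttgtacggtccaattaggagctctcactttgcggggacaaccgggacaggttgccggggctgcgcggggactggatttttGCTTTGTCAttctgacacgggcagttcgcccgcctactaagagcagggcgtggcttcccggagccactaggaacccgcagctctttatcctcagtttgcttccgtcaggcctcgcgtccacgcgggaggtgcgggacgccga

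In Me1 the core begins 6 bases before the start and runs across it, and in Prdx1 it begins 133 bases before the start. In both windows the core overlaps TGACTCA or its reverse complement TGAGTCA, the site of AP-1 factors, which 5.95% of all genes with a window hold in it. The core begins 240 bases before the start of Nfe2l2 and 92 bases before a start of Txnrd1, with no such overlap. That start of Txnrd1 lies inside the gene, which is placed at chr10:82833951-82897724. Srxn1, Gclm, Sod1, Gstm5, Gsta3, Gstm7, Txndc2, Txndc5 and Txndc11 also had a match.

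Of 4 genes of glutathione synthesis and recycling, 1 fell and 0 rose. Gclc, the catalytic subunit of the rate-limiting ligase, was 4.22 and 5.80 RPKM in control and 9.11 and 5.89 RPKM in OXCT1mKO. The upper control and the lower OXCT1mKO library nearly met, and the difference did not pass (0.49 ± 0.24, limma adjusted p 0.167). Gclm, its modifier subunit, was 15.02 and 18.6 RPKM in control and 15.01 and 12.2 RPKM in OXCT1mKO (-0.28 ± 0.15, limma adjusted p 0.205). Gss, which adds glycine in the last step, was 11.6 and 11.2 RPKM in control against 7.42 and 7.79 RPKM in OXCT1mKO. It fell by 0.53 ± 0.09 (SE) on the log2 scale, with a limma adjusted p of 0.0187. Gsr was 30.3 and 25.8 RPKM in control and 33.5 and 26.3 RPKM in OXCT1mKO, and the groups overlapped. The Gclc to Gclm ratio within a library was 0.281 and 0.313 in control and 0.607 and 0.482 in OXCT1mKO.

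Me1, the cytosolic malic enzyme that makes NADPH from malate, was 7.69 and 8.42 RPKM in control and 3.69 and 2.94 RPKM in OXCT1mKO. It fell by 1.07 ± 0.13 (limma adjusted p 0.0127). By 50-base words, 28.3% of its annotated transcript sequence also occurs in other genes, mostly in Gm7049, so some of its reads could be assigned elsewhere. Nqo1, the quinone reductase that is a classical NRF2 target, was 2.67 and 3.75 RPKM in control and 1.93 and 3.62 RPKM in OXCT1mKO. Its libraries overlapped between the groups (-0.18 ± 0.27, limma adjusted p 0.616).

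**Figure D4:**
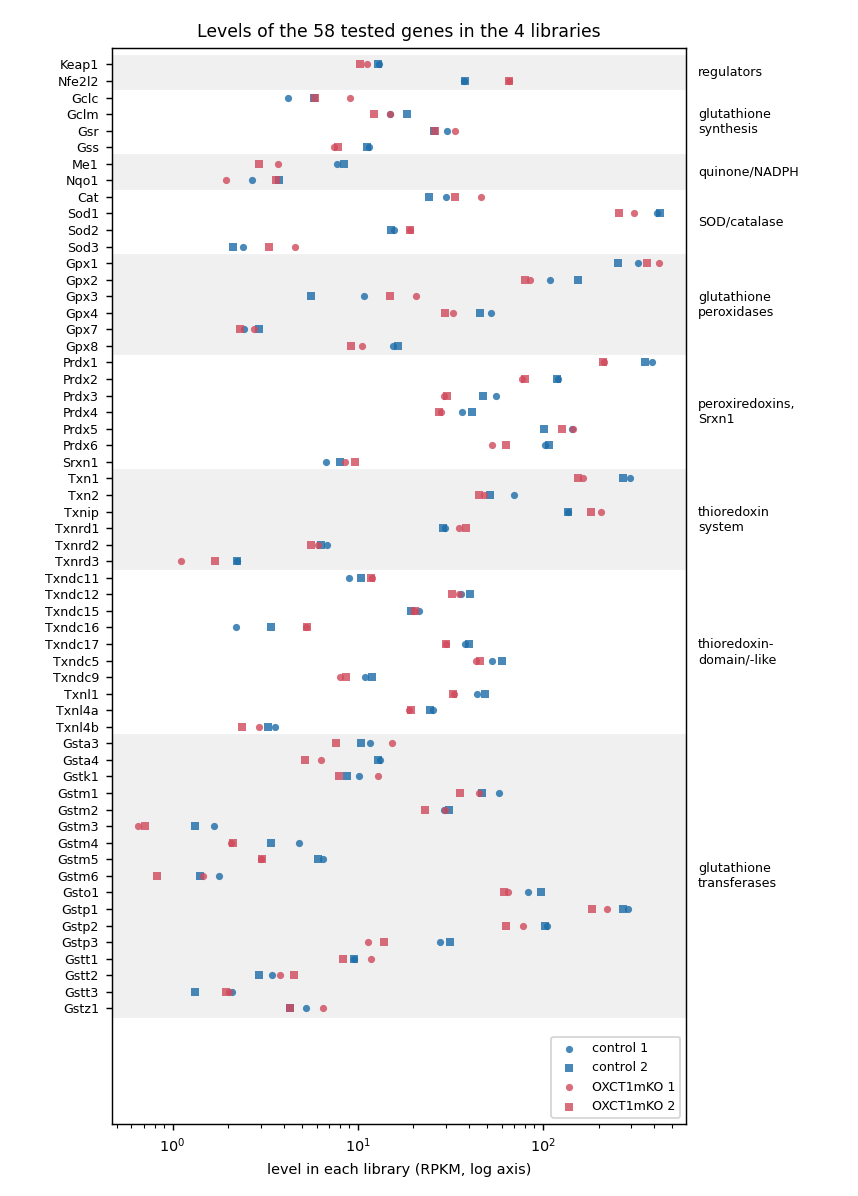
RPKM (log axis) of the 58 tested genes in each library, controls in blue and OXCT1mKO in red, grouped by role. Replicates lie close together for Nfe2l2, Sod2, Prdx2 and Txnl4a and far apart for Gpx3, Gsta3 and Nqo1.

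Superoxide dismutases convert superoxide to hydrogen peroxide, and catalase breaks the peroxide down. Sod1, the cytosolic enzyme, was 411 and 431 RPKM in control and 309.9 and 256 RPKM in OXCT1mKO. It fell by 0.58 ± 0.13 (limma adjusted p 0.0318). The mitochondrial Sod2 was 15.8 and 15.2 RPKM in control and 19.2 and 19.1 RPKM in OXCT1mKO, a log2 fold change of 0.29 ± 0.09 with a limma adjusted p of 0.0562. The secreted Sod3 was 2.41 and 2.11 RPKM in control and 4.58 and 3.32 RPKM in OXCT1mKO (0.59 ± 0.17, limma adjusted p 0.0521). Cat was 29.8 and 24.3 RPKM in control and 46.1 and 33.6 RPKM in OXCT1mKO (0.53 ± 0.19, limma adjusted p 0.0875). Sod2, Sod3 and Cat thus lay higher in both OXCT1mKO libraries, as 37.6% of all tested genes did, and did not pass as fitted here. With equal RPKM sums without globin, Sod2 (0.39, limma adjusted p 0.0313) and Sod3 (0.67, limma adjusted p 0.039) passed as higher. Sod2 also passed with a minimum mean of 5 RPKM (limma adjusted p 0.0463) and Sod3 with median-ratio scaling (0.0498). Sod1 to Sod2 was 26.0 and 28.4 within the control libraries and 16.1 and 13.4 within those of OXCT1mKO.

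The 6 glutathione peroxidases above 1 RPKM split by gene, with 2 lower and 0 higher. Gpx1, the abundant cytosolic selenoenzyme, was 327 and 255 RPKM in control and 423 and 363 RPKM in OXCT1mKO, which did not pass (0.44 ± 0.16, limma adjusted p 0.0979). It passed as higher without control 1 (0.62, limma adjusted p 0.0451). Gpx4, the enzyme that reduces lipid hydroperoxides in membranes and restrains ferroptosis, was 52.2 and 45.6 RPKM in control and 32.7 and 29.7 RPKM in OXCT1mKO. It fell by 0.63 ± 0.11 (limma adjusted p 0.0187). Of its 50-base words 34.7% also occur in the pseudogene Gpx4-ps2. Gpx1 to Gpx4 was 6.26 and 5.59 within the control libraries and 12.96 and 12.2 within those of OXCT1mKO.

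Gpx8, a membrane protein of the endoplasmic reticulum, was 15.5 and 16.4 RPKM in control and 10.5 and 9.24 RPKM in OXCT1mKO. It fell by 0.64 ± 0.10 (limma adjusted p 0.0167), while its relative Gpx7 overlapped between the groups (2.32 to 2.91 RPKM). Gpx2, the epithelial glutathione peroxidase, was 109 and 154 RPKM in control and 84.8 and 79.9 RPKM in OXCT1mKO (-0.65 ± 0.18, limma adjusted p 0.0516). It passed as lower without control 1 (-0.90, limma adjusted p 0.0226) and without control 2 (-0.40, limma adjusted p 0.0407). The same held with a minimum mean of 5 RPKM (limma adjusted p 0.0435) and with median-ratio scaling (0.0403). The summed epithelial markers ranked the libraries in the same order, at 623 and 968 RPKM in control and 579 and 511 RPKM in OXCT1mKO. Their part in the Gpx2 values was not tested. Gpx3, the secreted form, went from 10.8 and 5.57 RPKM in control to 20.7 and 14.9 RPKM in OXCT1mKO. At 1.07 ± 0.32 it did not pass (limma adjusted p 0.0592), and leaving out single libraries gave values between 0.65 and 1.499. It passed with a minimum mean of 5 RPKM (limma adjusted p 0.0493), with equal sums without globin (0.0489) and without control 1 (0.0265).

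Of the 6 tested peroxiredoxins 5 fell, with log2 fold changes between -0.86 and -0.47. Prdx1, a cytosolic 2-Cys enzyme whose promoter is printed above, was 391 and 356 RPKM in control and 215 and 212 RPKM in OXCT1mKO. It fell by 0.80 ± 0.10 (limma adjusted p 0.0129). Prdx2, best known from red cells, was 121 and 119 RPKM in control and 77.2 and 80.5 RPKM in OXCT1mKO, and it fell by 0.60 ± 0.09 (limma adjusted p 0.0138). Summed erythroid markers were 24385 and 846 RPKM in control and 329.7 and 309 RPKM in OXCT1mKO, and their part in the Prdx2 values was not tested.

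The mitochondrial Prdx3 was 55.9 and 47.8 RPKM in control and 29.4 and 30.4 RPKM in OXCT1mKO, a fall of 0.77 ± 0.11 (limma adjusted p 0.0137). Prdx4, the peroxiredoxin of the endoplasmic reticulum, was 36.5 and 41.4 RPKM in control and 28.3 and 27.4 RPKM in OXCT1mKO (-0.47 ± 0.10, limma adjusted p 0.0278). Prdx6, a 1-Cys enzyme that uses glutathione and also has phospholipase activity, was 103 and 108 RPKM in control and 53.1 and 63.1 RPKM in OXCT1mKO (-0.86 ± 0.12, limma adjusted p 0.013). For each of the 5 genes the groups were apart, as 37% of all tested genes were with OXCT1mKO lower. The OXCT1mKO to control ratio of means of the 5 lay between 0.55 and 0.715. Prdx5, which is found in several organelles, was the exception, at 144 and 102 RPKM in control and 145 and 127 RPKM in OXCT1mKO. Srxn1, the sulfiredoxin that repairs overoxidised peroxiredoxins and is an NRF2 target, was 6.73 and 8.03 RPKM in control and 8.51 and 9.73 RPKM in OXCT1mKO (0.27 ± 0.13, limma adjusted p 0.157). Prdx1 to Srxn1 was 58.1 and 44.3 within the control libraries and 25.3 and 21.8 within those of OXCT1mKO.

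In the thioredoxin system the substrate fell while its inhibitor rose. Txn1, cytosolic thioredoxin, was 297 and 272 RPKM in control and 164 and 154 RPKM in OXCT1mKO, a fall of 0.83 ± 0.10 (limma adjusted p 0.0127). Txnip, which binds reduced thioredoxin and is induced by glucose, was 137 and 136 RPKM in control and 207 and 181 RPKM in OXCT1mKO, a rise of 0.50 ± 0.11 (limma adjusted p 0.028). The groups were apart for both genes, as for 74.7% of all tested genes. Txn1 to Txnip went from 2.16 and 2.00 within the control libraries to 0.795 and 0.851 within those of OXCT1mKO. The Txnip call was lost without the filter on low genes (limma adjusted p 0.0557) and without control 1 (0.0526). The mitochondrial Txn2 was 70.0 and 51.9 RPKM in control and 48.0 and 45.2 RPKM in OXCT1mKO (-0.37 ± 0.16, limma adjusted p 0.137).

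Of the reductases, Txnrd1 of the cytosol was 29.5 and 28.7 RPKM in control and 35.0 and 38.4 RPKM in OXCT1mKO. The groups did not overlap, as for 74.7% of all tested genes, but the test was not passed (0.32 ± 0.09, limma adjusted p 0.0515). It was passed with a minimum mean of 5 RPKM (limma adjusted p 0.0445) and with equal sums without globin (0.42, limma adjusted p 0.0302). Txnrd2 of mitochondria was 6.85 and 6.37 RPKM in control and 6.08 and 5.57 RPKM in OXCT1mKO (-0.16 ± 0.10, limma adjusted p 0.286). Txnrd3, a reductase with an added glutaredoxin domain, was 2.23 and 2.24 RPKM against 1.11 and 1.71 RPKM (-0.44 ± 0.17, limma adjusted p 0.106). Both lay lower in OXCT1mKO without passing.

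Of 10 tested genes with a thioredoxin domain or a thioredoxin-like fold, 4 fell and 1 rose. The rise was in Txndc16, a lumenal protein of the endoplasmic reticulum, which went from 2.21 and 3.39 RPKM to 5.28 and 5.34 RPKM (0.75 ± 0.18, limma adjusted p 0.0359, and 0.086 without the filter on low genes). Those that fell were the cytosolic Txnl1 (-0.48 ± 0.09, limma adjusted p 0.0232), Txndc9 (-0.42 ± 0.10), a partner of chaperonin complexes, Txndc17 (-0.37 ± 0.08), a thioredoxin-related cytosolic protein, and Txnl4a (-0.37 ± 0.08), a component of the spliceosome. Txnl1 was 43.8 and 48.6 RPKM in control and 32.9 and 32.8 RPKM in OXCT1mKO. Txndc9, Txndc17 and Txnl4a were no longer called with equal sums without globin (limma adjusted p 0.0577, 0.0552 and 0.0661). The disulfide isomerase Txndc5 was 52.9 and 60.2 RPKM in control and 43.6 and 45.5 RPKM in OXCT1mKO (-0.33 ± 0.10, limma adjusted p 0.0614). Txndc11, Txndc12, Txndc15 and Txnl4b had log2 fold changes between -0.28 and 0.27 and did not pass.

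Glutathione transferases join glutathione to electrophiles. Of the 22 genes found, 17 were tested, 8 fell and 0 rose. The 3 pi genes, a cluster on chromosome 19, all fell. Gstp1 was 289 and 271 RPKM in control and 222 and 184 RPKM in OXCT1mKO (-0.47 ± 0.13, limma adjusted p 0.0481). Gstp2 was 105 and 103 RPKM in control and 78.3 and 63.4 RPKM in OXCT1mKO (-0.55 ± 0.13, limma adjusted p 0.0332). The 2 genes are near copies: 49.1% of the 50-base words of Gstp2 occur in Gstp1, so reads could be divided between them in either way. The Gstp1 call was lost in 6 of the 10 alternatives with both OXCT1mKO libraries, with control 1 left out (limma adjusted p 0.108) or control 2 left out (0.0658) among them. Gstp3, at chr19:4057470-4059605 on the minus strand, was 27.9 and 31.5 RPKM in control and 11.3 and 13.8 RPKM in OXCT1mKO. It fell by 1.18 ± 0.13 (limma adjusted p 0.0127).

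Of 6 tested mu genes on chromosome 3, 3 fell. Gstm5 was 6.49 and 6.13 RPKM in control against 2.998 and 3.04 RPKM in OXCT1mKO (-0.86 ± 0.10, limma adjusted p 0.0127). Gstm4 was 4.80 and 3.42 RPKM in control and 2.08 and 2.12 RPKM in OXCT1mKO (-0.71 ± 0.17, limma adjusted p 0.0351), and Gstm3 was 1.67 and 1.32 RPKM against 0.648 and 0.714 RPKM (-0.57 ± 0.15, limma adjusted p 0.0476). The more abundant Gstm1 was 57.9 and 47.0 RPKM in control and 45.2 and 35.8 RPKM in OXCT1mKO, and Gstm2 was 29.2 and 31.2 RPKM against 29.5 and 23.0 RPKM. Neither passed (limma adjusted p 0.141 and 0.296), and Gstm6 did not either. Gstm3 and Gstm1 share 28.8% and 18.9% of their 50-base words with other genes.

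Gsta4, the alpha transferase with a preference for the lipid peroxidation product 4-hydroxynonenal, was 13.3 and 12.9 RPKM in control and 6.33 and 5.20 RPKM in OXCT1mKO. It fell by 1.06 ± 0.12 (limma adjusted p 0.0127), and none of its 50-base words occurs in another gene. Gsto1 of the omega class was 82.9 and 98.1 RPKM in control and 64.5 and 62.0 RPKM in OXCT1mKO (-0.51 ± 0.11, limma adjusted p 0.0313). Gsta3, a transferase abundant in liver, was 11.7 and 10.5 RPKM in control and 15.3 and 7.61 RPKM in OXCT1mKO. Gstk1 of the kappa class was 10.1 and 8.79 RPKM in control and 12.9 and 7.90 RPKM in OXCT1mKO. For both genes OXCT1mKO 1 was highest and OXCT1mKO 2 lowest. The summed hepatocyte markers ranked the libraries in the same order, at 609.7 and 520.1 RPKM in control and 777 and 482 RPKM in OXCT1mKO, and their part in these values was not tested. The theta genes Gstt1, Gstt2 and Gstt3 and the zeta gene Gstz1 did not pass, with log2 fold changes between 0.05 and 0.30.

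The 7 genes under a mean of 1 RPKM were not tested. Gsta1 was 0.761 and 1.33 RPKM in control, 0.258 RPKM in OXCT1mKO 1 and listed at 0 in OXCT1mKO 2, and 90.5% of its 50-base words occur in other genes. Gsta2 (0.105 to 0.431 RPKM), Gstm7 (0.424 to 0.871 RPKM) and Gsto2 (0.17 to 0.351 RPKM) were above 0 in every library. Gstt4, Prdx6b and Txndc2 were above 0 in 1 library each, the highest value being 0.076 RPKM.

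A wider list of 56 redox genes outside these families was read from the same fit, of which 55 were tested, 10 rose and 6 fell, a share of 29.1% called beside the 32.8% of all genes. The list holds subunits of the phagocyte NADPH oxidase, which makes superoxide. Cybb, its catalytic chain, was 22.7 and 16.3 RPKM in control and 58.1 and 56.6 RPKM in OXCT1mKO (1.53 ± 0.17, limma adjusted p 0.0127). The cytosolic subunits Ncf1 (1.10 ± 0.12) and Ncf4 (0.75 ± 0.12) rose too, Ncf4 being named after its values were seen. Cyba, the membrane partner of Cybb, was 180.3 and 132 RPKM in control and 199.7 and 209 RPKM in OXCT1mKO and did not pass (limma adjusted p 0.126), nor did Rac2 (0.765). The 6 of 10 macrophage markers that rose moved with Cybb, Ncf1 and Ncf4, and their part was not tested.

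Bach1, the repressor that competes with NRF2 at the antioxidant response element, was 5.06 and 7.92 RPKM in control and 16.9 and 17.8 RPKM in OXCT1mKO. It rose by 1.32 ± 0.20 (limma adjusted p 0.015). Hmox1, the haem oxygenase that both factors control, was 72.1 and 69.4 RPKM in control and 106 and 96.5 RPKM in OXCT1mKO (0.51 ± 0.09, limma adjusted p 0.021). Slc7a11, the cystine importer that feeds glutathione synthesis, was 1.28 and 5.27 RPKM in control and 4.33 and 3.76 RPKM in OXCT1mKO, so the spread between the controls exceeded the difference (0.41 ± 0.48, limma adjusted p 0.531). Without control 2 it passed as higher (1.14, limma adjusted p 0.0186), and without control 1 its sign turned (-0.32). Of the genes that fell, the epoxide hydrolase Ephx1 (-0.80 ± 0.10), the mitochondrial NADPH source Idh2 (-0.70 ± 0.10), the mitochondrial glutaredoxin Glrx5 (-0.77 ± 0.12) and the microsomal transferase Mgst2 (-0.95 ± 0.17) had the smallest p. Markers of hepatoma and fetal liver (3 of 4 tested fell), the pancreatic acinus (6 of 6) and T cells (5 of 6) moved with these and with the 23 members that fell. Markers of macrophages (6 of 10 rose), Kupffer cells (7 of 8) and liver endothelium (5 of 8) moved with Nfe2l2, Txnip, Txndc16, Bach1 and Hmox1. The abundant macrophage markers C1qa, C1qb and C1qc overlapped between the groups (limma adjusted p 0.501, 0.393 and 0.38). The part of none of these lists was tested.

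**Figure D5:**
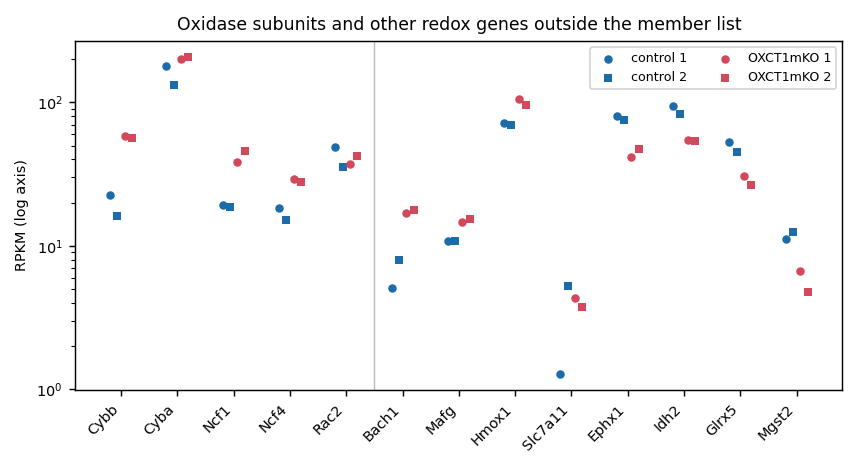
RPKM (log axis) in each library of 5 NADPH oxidase subunits, left of the line, and 8 other redox genes, controls in blue and OXCT1mKO in red. Cybb, Ncf1, Ncf4, Bach1, Mafg and Hmox1 lie higher in both OXCT1mKO libraries and Ephx1, Idh2, Glrx5 and Mgst2 lower, while the controls of Slc7a11 span 1.28 to 5.27 RPKM.

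A set of 15 of the 26 called members, Nfe2l2 upward and 14 downward, passed in each of the 9 alternative settings that tested all 58 genes and kept both OXCT1mKO libraries. The 14 were Gpx4, Gpx8, Gss, Gsta4, Gstm5, Gstp3, Prdx1, Prdx2, Prdx3, Prdx4, Prdx6, Me1, Txnl1 and Txn1. The other 11, among them Sod1, Gstp1, Gstp2, Gsto1, Txnip and Txndc16, lost the call in at least 1 of those settings. Some of these calls were also lost in limma fits with 1 control left out. Sod1, Gstp1, Gstp2 and Gstm3 lost the call whichever control it was. Their fold changes without control 1 and without control 2 were -0.61 and -0.54 for Sod1 and -0.42 and -0.51 for Gstp1. For Gstp2 they were -0.53 and -0.56, and for Gstm3 -0.47 and -0.67. Such fits have 1 library fewer, so a lost call need not mark out that control. Without control 1 the adjusted p was 0.0569 for Sod1, 0.0756 for Gstp2, 0.115 for Gstm3, 0.0594 for Gstm4 and 0.0548 for Txnl4a. Without control 2 it was 0.0613 for Sod1, 0.0606 for Gstp2, 0.0503 for Gstm3 and 0.0653 for Txndc9. In the other direction, Txndc5 passed as lower without control 1 (-0.43, adjusted p 0.0388) and Txn2 without control 2 (-0.58, adjusted p 0.0219).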

How the data were processed

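Messenger RNA of 4 libraries of sorted mouse liver tumour macrophages was compared, 2 control and 2 OXCT1mKO, grouped and numbered by their titles. The authors deposited 1 table of RPKM values with 1 row per gene symbol; build mm10, STAR 2.10 and R 4.0.5 are named, per the submitters' processing notes. The read counter, its strand setting, gene lengths and library size definition are not stated there, so genes that overlap or share sequence can exchange reads. The labels do not say that samples came from separate animals, and the spread behind the p-values may be technical.

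The read depth is unknown. Ratios of values with a mean up to 0.05 RPKM were searched near 1 for a peak. Against control 1, they peaked at relative depths of 1.03, 0.964 and 0.911 for control 2, OXCT1mKO 1 and OXCT1mKO 2. In that order the peaks held only 11 of 135, 5 of 147 and 12 of 133 ratios. Values were fitted as log2(RPKM + 1) in limma 3.58.1 (R 4.3.3) with a group coefficient and a variance trend, for 12523 genes with a mean of at least 1 RPKM. Tests were two-sided with Benjamini-Hochberg adjustment over all genes and a threshold of 0.05. Fold changes on that scale understate those of low genes. An exact permutation test of 2 against 2 cannot go below 0.333. The fit was tested on simulated data with shifts of 2 log2 units. No member differed by that much, so that test does not gauge calls of their size.

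The members and lists were chosen with earlier results of these data known. The rule for genes given with values took members past the threshold that differed by 0.5 or more on the log2 scale. It also took a fixed set of 23 members. From the wider list it took up to 4 called genes in each direction with the smallest p, Hmox1 and Slc7a11. Other members are named, many with values, to account for all of them, and were not picked by that rule. Cyba, Ncf4, Rac2 and Mafg of the wider list also fall outside it. A gene of the wider list that this rule names is not reported here. Exon lengths and 50-base words came from GENCODE M21 (GRCm38). Of 12523 tested genes 12334 had a length.

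Alternatives were other pseudocounts, filters and scalings, variances with no trend, the replicate number as a block, and each library left out in turn.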

Additional observations from a re-analysis of the deposited data

How the results depend on the processing

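All 26 called genes kept their direction under every alternative that tested them. Their groups did not overlap, so only the scalings (equal RPKM sums without globin and median-ratio) could have turned a sign. Under the other settings the direction was fixed beforehand. Of 452 fold changes of the 58 genes under settings other than leaving out a library, 413 kept direction and side of the threshold, 21 lost the call, 15 gained it and 3 changed sign. The sign changes came with equal RPKM sums without globin: Gpx7 (0.022), Gsta3 (0.064) and Txndc15 (0.089). Without the filter on low values, 17 members were called, 1 higher and 16 lower, and 2340 genes in all, 1191 higher and 1149 lower. That setting adjusts over 19514 genes. Members called higher numbered 5 with a minimum mean of 5 RPKM and 8 with equal sums without globin. Same-numbered libraries deviated together with a correlation of 0.055, so the numbers are not taken to pair them. With the replicate block, 25 members were called, 6 higher and 19 lower, of which 21 were among the 26. The calls gained with the block were Gpx2 (adjusted p 0.0486), Gpx3 (0.0162), Cat (0.0294) and Sod3 (0.0447).

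Leaving out single libraries, counts ranged from 0 to 23 for called members (0 to 4 higher, 0 to 20 lower), from 0 to 21 for the wider list (0 to 14 higher, 0 to 7 lower) and from 1 to 4418 for all genes (0 to 2362 higher, 1 to 2056 lower). The zero counts for members and the wider list came without OXCT1mKO 1 or OXCT1mKO 2, fits in which the lone library is taken to vary as the controls do. The members' median ranged from -0.37 to -0.19. Genes that changed sign ranged from -0.49 to 0.43 for Gsta3, -0.077 to 0.063 for Txndc15, -0.15 to 0.044 for Gpx7, -0.088 to 0.25 for Gsr, -0.23 to 0.41 for Gstk1, -0.061 to 0.35 for Gstt3, -0.084 to 0.42 for Prdx5, -0.51 to 0.14 for Nqo1, -0.18 to 0.28 for Gstt1, -0.12 to 0.38 for Gstz1 and -0.32 to 1.14 for Slc7a11.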
